A study of Mus musculus with 18 samples.

Results

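Brown fat of young mice whose mothers ate fish oil or a control diet was compared at 2 ages, and the question was for which metabolic genes the maternal diet effect at weaning differed from, or turned against, the effect in adulthood. The comparison used 12 of the 18 libraries of the series, 3 in each of 4 groups, chosen by their labels alone; the other 6 libraries are fetal and were not used for it. All animals were C57BL/6 mice, and the tissue was interscapular brown fat, frozen and extracted with Trizol. The weaned control and weaned fish oil groups were the 3-week-old offspring of mothers that ate a control or a fish oil diet while pregnant and nursing. The adult control and adult fish oil groups were 15-week-old offspring of mothers on the same diets, and the sample labels add high fat to the diet of all of these adults, which the design text puts at 8 weeks after weaning. That text can also be read to mean that the adult groups were given the control or fish oil diet themselves after weaning, so what they ate besides is not certain. No adults without high fat feeding were compared here, so age and the offspring's own diet cannot be told apart. The labels say neither the sex of the mice, nor whether replicates were litter mates or pools, nor the composition of the diets; p-values therefore measure only the spread between these libraries. Throughout, a maternal diet effect is the log2 fold change of fish oil over control at 1 age, and the difference is the adult effect minus the weaned effect, so a negative difference means that fish oil offspring stood lower against their controls in adulthood than at weaning.

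Brown fat burns fatty acids in mitochondria to make heat through the uncoupling protein UCP1, and it refills its lipid droplets with fatty acids taken up from blood or made from glucose. In that synthesis citrate leaves the mitochondrion and is cut to acetyl-CoA, which is carboxylated, extended to palmitate, elongated and desaturated. The transcription factor SREBP-1c (gene Srebf1) and the glucose-responsive factor ChREBP (Mlxipl) drive these genes, while SREBP-2 (Srebf2) drives cholesterol synthesis and the protein INSIG1 holds both SREBPs back in the endoplasmic reticulum. A total of 14 metabolic gene lists with 324 symbols, of which 314 were tested, covered these pathways; skeletal muscle genes were kept in lists of their own.

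Forward-strand totals were 14755725 to 17943071 counts in weaned and 7889595 to 9663600 in adult libraries. The mitochondrial rRNA mt-Rnr2 took 53.12 to 61% of them at weaning and 43.35 to 46.82% in adults. The mt-Rnr2 share also split by maternal diet, without overlap and in opposite order at the 2 ages. At weaning it was lower with fish oil (53.12 to 54.92%, against 58.36 to 61%). Among adults it was higher with fish oil (45.12 to 46.82%, against 43.35 to 44.54%). Without mitochondrial rRNA, 3869067 to 6541462 counts were left. A floor of 3 counts corresponded to 0.183 to 0.38 CPM (normalised read counts scaled to a common library size by trimmed mean of M values), for counting error only. The brown adipocyte markers (8 genes, Ucp1 and Prdm16 among them) summed to 2790 to 4540 CPM at weaning and 2960 to 3820 CPM in adults, and 9 white fat markers to 12.4 to 106.5 CPM over the 12 libraries, with 2 of the 9, Hoxc9 and Hoxc10, at 0 in all of them. Among the weaned libraries 2 stood apart from their own groups, control replicate 3 and fish oil replicate 1. Counts of fish oil replicate 1 differed from replicates 2 and 3 by a chi-square per gene of 67.3 and 53, against 21.6 between the latter, and control replicate 3 differed from replicates 1 and 2 by 31.2 and 27.1 against 7.44. Adult pairs lay between 5.52 and 19.1. Counts of genes called are therefore also given without these libraries (chosen once the data had been seen), and values are listed in the order of replicates 1, 2 and 3. Leaving them out narrows the weaned groups by choice, so results of that fit describe how the counts depend on these libraries and are not further support.

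Of 13246 genes tested, 1 (0.00755%) passed for the difference at an adjusted p under 0.05 over the 12 libraries, and it was in none of the metabolic lists. At an unadjusted p under 0.05 stood 76 of the 314 tested metabolic genes (7.52% of all genes did), of which 71 were negative and 5 positive. These make 22.6% and 1.59% of the list members, against 3.87% and 3.65% of all genes tested. The median difference over the metabolic lists was -0.28 on the log2 scale, from a median effect of 0.24 at weaning and -0.06 in adulthood, while the medians over all genes were 0.0041, -0.0071 and -0.0057. The count depended on which libraries entered the fit. A fit to all 18 libraries, where the biological coefficient of variation was 20.6% against 24.9% over the 12, called 36 of 14366 genes (0.251%), 21 with a positive (0.146%) and 15 with a negative (0.104%) difference. Metabolic genes made up 7 of those 15, namely Fasn, Insig1, Cyp51, Plin2, Aacs, Adipor2 and Slc25a1. The added fetal libraries are not part of the difference, and 20.6% is below the 26.8% of the weaned libraries alone. Adjusted p over 18 libraries rest on that smaller spread and are not further support. Without the 2 weaned libraries that stood apart, 1179 of 13011 genes (9.06%) passed, 100 of them metabolic, and without weaned fish oil replicate 1 alone 266 genes (2.03%) passed, 47 of them metabolic.

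**Figure D1:**
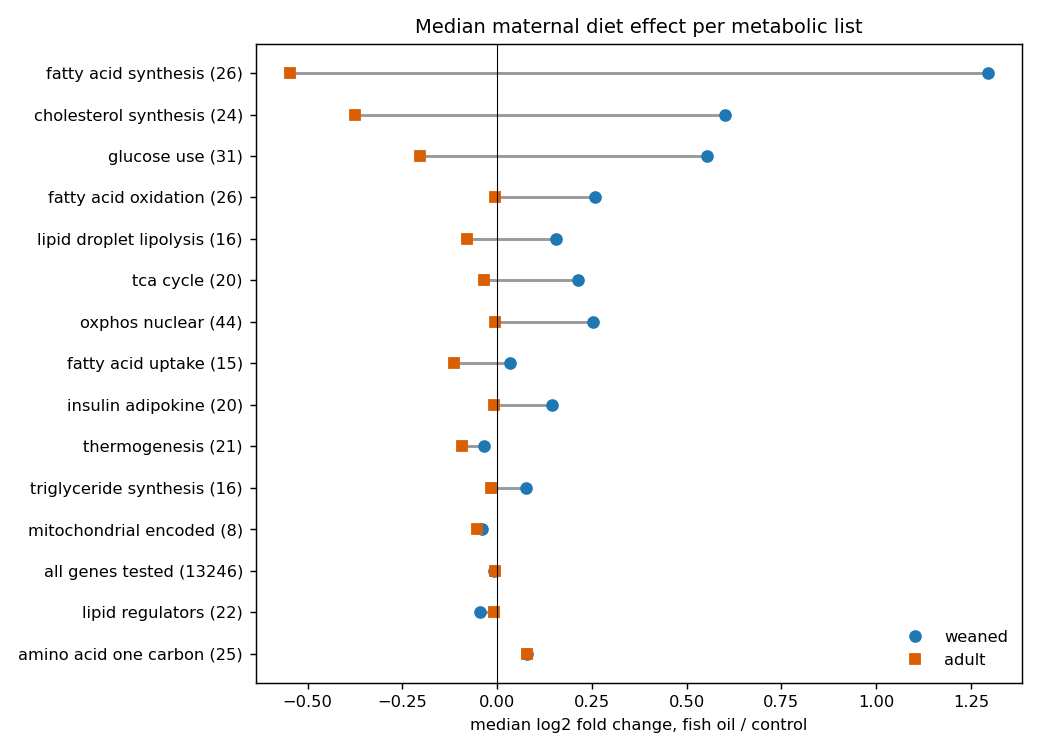
Median maternal diet effect of each metabolic list at weaning (blue circles) and in adulthood (orange squares), as log2 fold change of fish oil over control on the x axis; the number of genes tested stands after each list name. The lists of fatty acid synthesis, cholesterol synthesis and glucose use run from a positive median at weaning (1.29, 0.60 and 0.55) to a negative one in adulthood (-0.55, -0.38 and -0.20), while the median over all genes stays near 0 at both ages.

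Fatty acid synthesis had the most negative median difference of the 14 lists. Of 26 tested members, 24 had a negative difference, and the median difference was -1.78. For 18 (69.2%) the unadjusted p was under 0.05, all negative, against 3.87% of all genes. None passed over the 12 libraries and 3 (Fasn, Aacs and Slc25a1) passed over all 18. Without both weaned libraries that stood apart 19 of the 26 passed, where 9.06% of all genes did, and the median was -2.26. The list's mean log2 CPM was 5.12, 5.32 and 5.78 in weaned control, 5.24, 7.02 and 7.01 in weaned fish oil, 6.57, 6.46 and 6.68 in adult control and 6.02, 6.42 and 5.83 in adult fish oil libraries. Weaned fish oil replicate 1 lay within the range of its controls, and the adult groups did not overlap. In weaned fish oil replicates 2 and 3, 22 of the 26 genes (84.6%) were above all 3 weaned controls, against 29.5% and 28.2% of all genes tested. In replicate 1 only 5 (19.2%) were above, against 25% of all genes, and 9 (34.6%) below, against 24.9%, so that this library was near the background. In adult fish oil replicates 1, 2 and 3, 23, 20 and 23 of the 26 (88.5%, 76.9% and 88.5%) were below all adult controls, against 29.6%, 30.7% and 26.6% of all genes.

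Fasn, the synthase that builds palmitate, stood at 1607, 1358 and 1493 CPM in weaned control and 2731, 7008 and 8758 CPM in weaned fish oil libraries. In adults Fasn stood at 7372, 6577 and 7938 CPM with control and at 4071, 5559 and 2886 CPM with fish oil. Groups were separate at both ages, in opposite order, and even weaned fish oil replicate 1 was above every weaned control. The effect was 2.05 ± 0.348 at weaning and -0.81 ± 0.337 in adulthood, the latter with an unadjusted p of 0.0338 that did not pass after adjustment. The difference was -2.86 ± 0.483 (adjusted p = 0.147 over 12 libraries, and 0.0182 over 18). Slc25a1, the mitochondrial carrier that exports citrate, read 12.1, 16.3 and 17.3 CPM in weaned control and 19, 147 and 137 CPM in weaned fish oil libraries. Its adult libraries read 75.8, 85.5 and 88.3 CPM with control and 55.9, 71.5 and 34.9 CPM with fish oil. The groups were again separate at both ages, although weaned fish oil replicate 1 was just above the controls. The difference was -3.35 ± 0.76 (adjusted p = 0.265, and 0.0396 over 18 libraries), with an adult effect of -0.62 ± 0.524 (unadjusted p = 0.258). Aacs, which makes acetoacetyl-CoA in the cytosol from ketone bodies, stood at 47.6, 57.2 and 53.3 CPM in weaned control against 68.6, 158.7 and 168.7 CPM in weaned fish oil libraries. In adults it stood at 59.5, 45.8 and 51.1 against 27.6, 37.9 and 34.4 CPM, again without overlap and in the opposite order. The difference was -1.97 ± 0.383 (adjusted p = 0.172, and 0.0196 over 18 libraries).

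**Figure D2:**
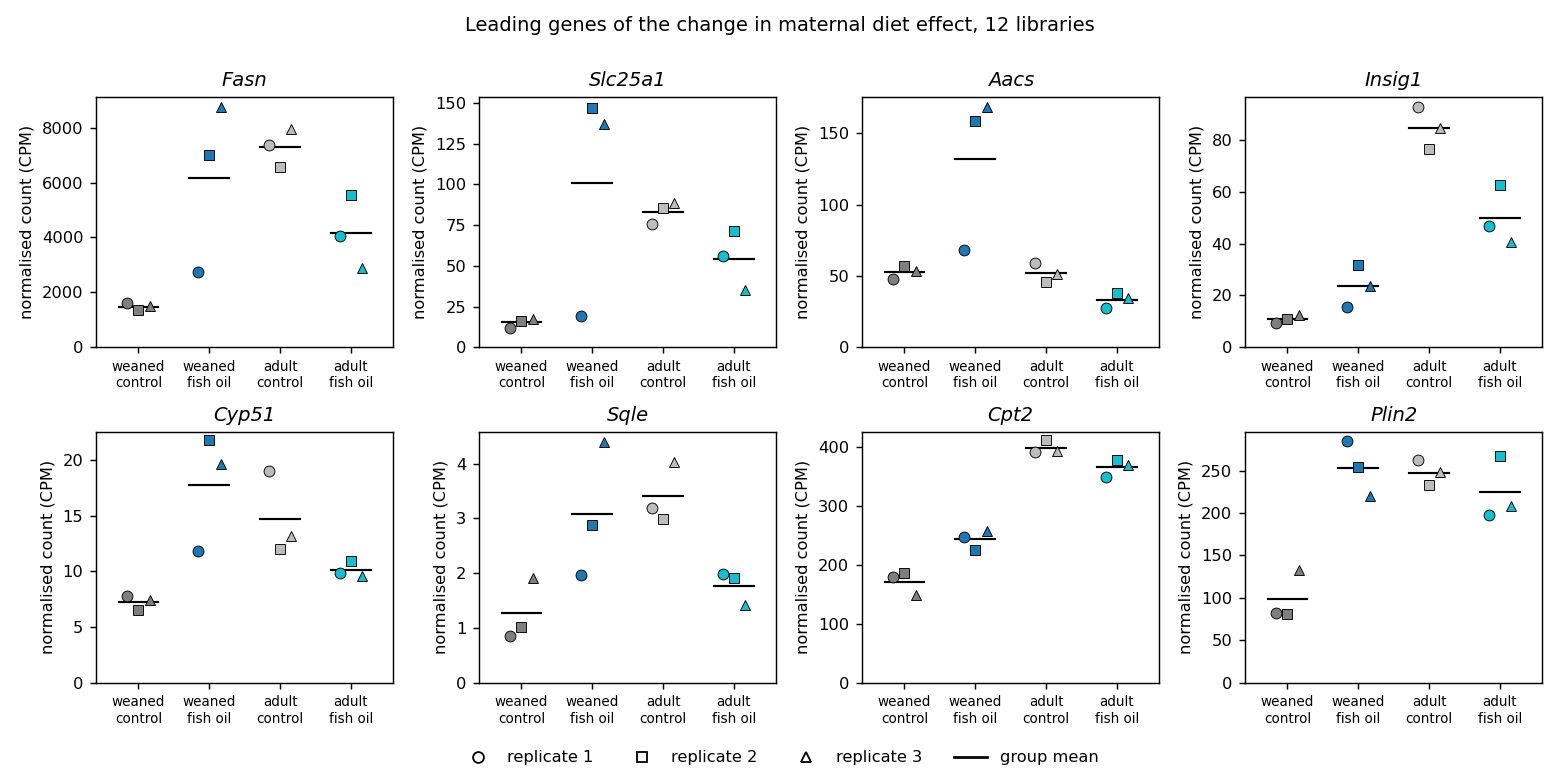
Normalised CPM (y axis, from 0, a separate scale per gene) of 8 genes in the 4 groups; each point is a library, its shape is the replicate number, and the bar is the group mean. In Fasn, Slc25a1, Aacs, Insig1, Cyp51, Sqle and Cpt2 all fish oil libraries lie above all controls at weaning and below them in adulthood; in Plin2 the adult groups overlap, at 197 to 268 CPM with fish oil and 232 to 262 CPM in control.

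The other enzymes of the route had like signs, but in several weaned fish oil replicate 1 sat with or below the controls. Acly, which cuts citrate to acetyl-CoA, stood at 67.9, 127.5 and 502 CPM in weaned control and 61.6, 1738 and 2285 CPM in weaned fish oil libraries. Its adult values were 640.5, 559 and 712 CPM with control and 343, 459 and 202 CPM with fish oil, without overlap. The difference of -3.48 ± 1.32 had an adjusted p of 0.571, and leaving out both weaned libraries that stood apart gave -5.29. For Acaca, acetyl-CoA carboxylase, it was -2.61 ± 0.898 (adjusted p = 0.54) and for the elongase Elovl6 -1.53 ± 0.401 (adjusted p = 0.363). Among weaned libraries Scd1, the main delta-9 desaturase, was highest in the one where Acly was lowest: 10160 CPM in weaned fish oil replicate 1, against 3546 and 4903 CPM in replicates 2 and 3 and 1404 to 4276 CPM in weaned control. Adult Scd1 was 48840 to 53380 CPM in control and 31930 to 37420 CPM in fish oil libraries, and the difference was -1.66 ± 0.547 (adjusted p = 0.52). The regulators Srebf1 (-2.05 ± 1.01, adjusted p = 0.694) and Mlxipl (-1.60 ± 0.529, adjusted p = 0.52) also had negative differences. So did enzymes that supply NADPH, with -1.91 for Pgd, -1.38 for Me1 (malic enzyme) and -0.76 for G6pdx, and Tkt, the transketolase of the non-oxidative pentose phosphate branch (-2.06). Pnpla3 (-3.09) and Mid1ip1 (-3.10), which activates acetyl-CoA carboxylase, were among the most negative. The fatty acid desaturases Fads1 and Fads2, which make long polyunsaturated fatty acids, were the exception with 0.16 ± 0.593 and 0.22 ± 0.663, and their sign turned in other fits.

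Cholesterol synthesis showed a like order, but its list means (log2 CPM) overlapped at both ages. Weaned fish oil replicate 1 (2.21) lay within its controls (2.046 to 2.385). Adult fish oil replicate 2 (2.953) was just above adult control replicate 2 (2.944). All 24 tested members had a negative difference, and the median was -1.03. At an unadjusted p under 0.05 stood 11 (45.8%), against 3.87% of all genes on the negative side. Over 18 libraries 2 members, Insig1 and Cyp51, passed. Without both weaned libraries that stood apart 13 of the 24 passed, where 9.06% of all genes did, and the median was -1.51. In weaned fish oil replicates 1, 2 and 3, 7, 22 and 17 of the 24 genes (29.2%, 91.7% and 70.8%) were above all weaned controls, against 25%, 29.5% and 28.2% of all genes, so that replicate 1 was near the background here too. In the adult fish oil libraries 18, 12 and 17 (75%, 50% and 70.8%) were below all adult controls, against 29.6%, 30.7% and 26.6% of all genes.

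Insig1, the brake on SREBP, stood at 9.49, 11.0 and 12.5 CPM in weaned control and 15.4, 31.8 and 23.5 CPM in weaned fish oil libraries. In adults it stood at 92.5, 76.6 and 84.7 CPM in control and 46.7, 62.6 and 40.8 CPM in fish oil libraries. Both ages were separate, in opposite order, and all adult libraries were above all weaned ones. The difference was -1.86 ± 0.333 (adjusted p = 0.153, and 0.0196 over 18 libraries). Cyp51, the lanosterol demethylase, read 7.79, 6.57 and 7.40 CPM in weaned control and 11.8, 21.8 and 19.6 CPM in weaned fish oil libraries, then 19.02, 12.0 and 13.2 CPM in adult control and 9.90, 10.9 and 9.62 CPM in adult fish oil libraries. Its groups did not overlap at either age, and the difference was -1.83 ± 0.327 (adjusted p = 0.153, and 0.0235 over 18 libraries). Sqle, squalene epoxidase, was near the floor but ordered the same way. It read 0.852, 1.02 and 1.92 CPM in weaned control against 1.97, 2.88 and 4.40 CPM, and 3.19, 3.00 and 4.03 CPM in adult control against 1.98, 1.90 and 1.42 CPM. The difference was -2.22 ± 0.518 (adjusted p = 0.274). Srebf2 itself differed by -0.76 ± 0.198 (adjusted p = 0.363), with fish oil libraries at 15.5 to 21 CPM at weaning against 11.1 to 13.0 CPM and at 14.2 to 16.3 CPM in adults against 17.1 to 18.2 CPM. Pmvk, phosphomevalonate kinase, differed by -1.19 ± 0.312 (adjusted p = 0.364) and Sc5d, a sterol desaturase, by -1.72 ± 0.497 (adjusted p = 0.441).

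The upstream sequences of Fasn, Insig1 and Cyp51 are shown because these genes of both lipid pathways had opposite group orders at the 2 ages. Each is the 250 bases before the gene's start in RefSeq on mouse build GRCm38.p6, at chr11:120824548-120824797 (minus strand), chr5:28071162-28071411 (plus strand) and chr5:4104698-4104947 (minus strand). They are written 5′ to 3′ on the gene's strand, with the CCAAT box, read as CCAAT or its reverse complement ATTGG, in capitals.
Fasn: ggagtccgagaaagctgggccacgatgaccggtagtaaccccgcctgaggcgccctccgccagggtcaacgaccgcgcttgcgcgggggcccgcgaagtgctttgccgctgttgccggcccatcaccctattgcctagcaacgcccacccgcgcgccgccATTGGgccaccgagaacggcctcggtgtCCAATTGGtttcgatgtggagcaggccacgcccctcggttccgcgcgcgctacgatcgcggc
Insig1: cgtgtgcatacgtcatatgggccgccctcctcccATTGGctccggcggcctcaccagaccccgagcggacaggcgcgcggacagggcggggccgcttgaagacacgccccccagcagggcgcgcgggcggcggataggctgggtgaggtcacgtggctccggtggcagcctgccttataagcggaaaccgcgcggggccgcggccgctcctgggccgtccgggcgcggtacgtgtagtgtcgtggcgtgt
Cyp51: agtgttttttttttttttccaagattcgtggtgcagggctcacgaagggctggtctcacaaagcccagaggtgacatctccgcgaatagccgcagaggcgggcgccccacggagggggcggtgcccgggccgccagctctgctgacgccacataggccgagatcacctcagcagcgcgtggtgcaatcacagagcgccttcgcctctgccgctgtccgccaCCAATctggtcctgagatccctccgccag
The Fasn window held 3 matches, at 90 to 86, 62 to 58 and 59 to 55 bases before the start, of which the last 2 overlap; Insig1 held 1 at 216 to 212 and Cyp51 1 at 29 to 25 bases. CCAAT on either strand was present in 33.8% of all 32851 such windows. Of the 12 turned metabolic genes named further on, 11 had a window, and 7 of these 11 genes held it. A gene counted if any of its windows matched, while the shares are over all windows, of tested genes or not, so they are not like for like. The E-box CACGTG, searched on both strands, was in 6.02% of all windows and in 3 of the 11 (Insig1, Mgll and Slc25a1). TCACNCCAC, an SREBP-type element, was in 1.05% of all windows and in 0 of the 11. A match describes the letters only, not a bound site.

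Genes of glucose use formed the third such list. Of 31 tested members 27 had a negative difference, and the median was -0.80. For 13 (41.9%) the unadjusted p was under 0.05, all 13 negative, against 3.87% of all genes. Over 12 or 18 libraries 0 passed. Without both weaned libraries that stood apart 21 passed, where 9.06% of all genes did, and the median was -1.24. In weaned fish oil replicates 1, 2 and 3, 8, 23 and 24 of the 31 (25.8%, 74.2% and 77.4%) were above all controls, and in adult fish oil libraries 20, 8 and 20 (64.5%, 25.8% and 64.5%) were below all controls. Weaned replicate 1 and adult replicate 2 were thus at about the share of all genes, 25% above and 30.7% below. Mpc1, a subunit of the carrier that brings pyruvate into mitochondria, stood at 16.0, 12.5 and 15.1 CPM in weaned control and at 21.5, 40.8 and 34.5 CPM in weaned fish oil libraries. In adults it stood at 23.7, 20.96 and 22.7 CPM against 12.2, 21.6 and 12.4 CPM, where fish oil replicate 2 overlapped the controls. The difference was -1.70 ± 0.356 (adjusted p = 0.205), beside -0.84 ± 0.243 for its partner Mpc2 (adjusted p = 0.441). Pdk1, a kinase that switches pyruvate dehydrogenase off, differed by -1.40 ± 0.339 (adjusted p = 0.305), and the dehydrogenase subunits Pdhb and Dlat by -1.23 and -0.69. In glycolysis the differences were -1.10 for Gpi1, -0.98 for Aldoa, -0.95 for Gapdh, -0.88 for Pkm and -0.80 for Ldha, each positive at weaning and negative in adulthood. Glycogen phosphorylase Pygl (-1.72) and glycogen synthase Gys2 (-1.11) did likewise. Trarg1, a regulator of GLUT4 traffic, had a positive effect at both ages (1.50 and 0.25). The hexokinase Hk1 (0.71 ± 0.381, adjusted p = 0.724) and the phosphatase Pdp1 (0.79 ± 0.396, adjusted p = 0.694) were on the positive side.

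**Figure D3:**
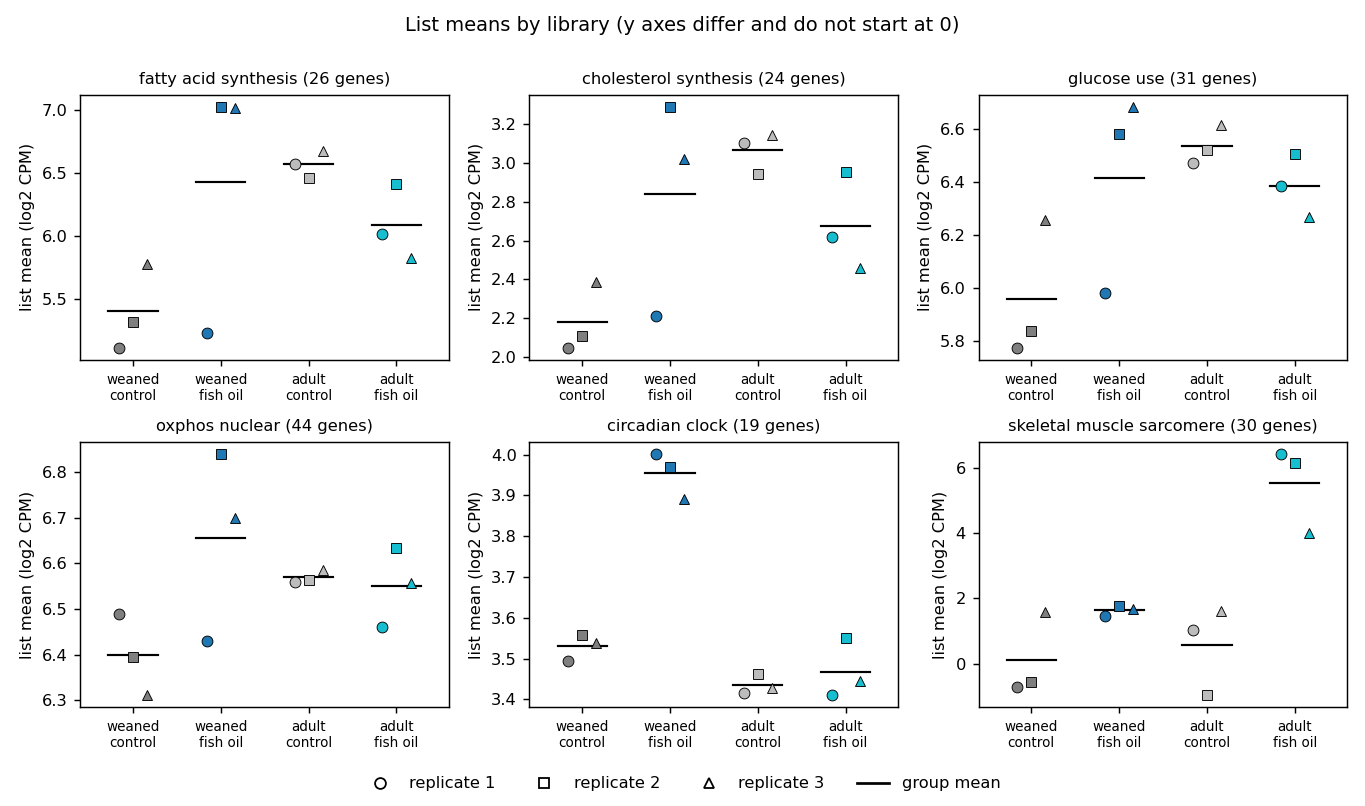
Mean log2 CPM over the tested genes of 6 lists in each library (y axis, separate scales that do not start at 0), by group; shapes are replicate numbers and bars group means. In the fatty acid synthesis panel weaned fish oil replicates 2 and 3 (7.02 and 7.01) are above every other library while replicate 1 (5.24) is among the controls; in the muscle panel the adult fish oil libraries (6.42, 6.15 and 3.99) are above the other 9.

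Lipid storage was mixed. Of 16 lipid droplet and lipolysis genes 4 (25%) had a negative difference with an unadjusted p under 0.05, against 3.87% of all genes. The median over the list was -0.29. Plin2, a coat protein of lipid droplets, stood at 82.4, 81.3 and 133 CPM in weaned control and at 285, 254 and 220.5 CPM in weaned fish oil libraries, with no overlap. In adults it stood at 262, 232.5 and 248 CPM in control and 197, 268 and 208 CPM in fish oil libraries, which overlapped, so its difference of -1.50 ± 0.275 (adjusted p = 0.156, and 0.0196 over 18 libraries) came with an adult effect of -0.14. Unlike most lipogenic genes, Plin2 was highest in weaned fish oil replicate 1. Mgll, monoglyceride lipase, read 70.9, 79.4 and 84.3 CPM in weaned control against 120.3, 108.9 and 122.7 CPM, and 163, 162 and 164 CPM in adult control against 149.8, 158.6 and 151 CPM. Both ages were separate, the adult one narrowly, and the difference was -0.67 ± 0.146 (adjusted p = 0.222). G0s2, an inhibitor of adipose triglyceride lipase, differed by -1.59 and the seipin gene Bscl2 by -0.44. The lipase activator Abhd5 (0.15, 95% interval -0.46 to 0.77) and the coat protein Plin4 (0.36, -0.62 to 1.33) had adjusted p of 0.937 and 0.892.

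Among 15 fatty acid uptake and activation genes 4 (26.7%) had a negative difference with an unadjusted p under 0.05, against 3.87% of all genes. They were Dbi, the acyl-CoA binding protein (-0.90 ± 0.256, adjusted p = 0.441), the acyl-CoA synthetases Acsl5 (-2.31 ± 0.684) and Acsl3 (-0.76 ± 0.247), and the binding protein Fabp5 (-0.99 ± 0.431). Dbi was flat among controls, at 249, 247.5 and 248.5 CPM when weaned and 500.0, 494 and 497 CPM as adults. With fish oil it stood at 269, 408 and 476 CPM at weaning and at 398, 484 and 352.5 CPM in adults, separate from the controls both times. The fatty acid transporter Cd36 (0.33 ± 0.211, adjusted p = 0.761) and the lipoprotein lipase anchor Gpihbp1 (0.34 ± 0.209, adjusted p = 0.751) lay on the other side, and the median of the list, -0.13, became 0.39 without both weaned libraries that stood apart. In triglyceride synthesis 8 differences were positive and 8 negative (median -0.01). An unadjusted p under 0.05 was reached by 2 members (12.5%), both negative, against 3.87% of all genes. They were the acyltransferase Agpat2 (-1.23 ± 0.401, adjusted p = 0.52) and Gpd1, which makes glycerol phosphate from glycolysis (-1.08 ± 0.488, adjusted p = 0.662). Glycerol kinase, Gk, had the highest difference of the list (1.02 ± 0.696, adjusted p = 0.783).

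In the mitochondrial lists the effect was small at weaning and near 0 in adults. Of the 44 nuclear genes of oxidative phosphorylation, all 44 had a positive effect at weaning (median 0.25) and 22 in adulthood (median -0.01). The median difference was -0.26, and 6 (13.6%) had an unadjusted p under 0.05, all negative, against 3.87% of all genes. Weaned fish oil replicate 1 again departed: 9 of the 44 (20.5%, against 25% of all genes) were above all weaned controls there, and 41 and 36 (93.2% and 81.8%, against 29.5% and 28.2%) in replicates 2 and 3. Cox5a, a subunit of cytochrome oxidase, read 34.5, 32.8 and 29.5 CPM in weaned control and 41.1, 42.6 and 41.9 CPM in weaned fish oil libraries. In adults it read 35.0, 37.4 and 40.5 CPM against 33.4, 35.0 and 35.0 CPM, so that the weaned groups were apart and the adult groups met. Its difference was -0.50 ± 0.147 (adjusted p = 0.441), and that of the complex III core protein Uqcrc1 -0.56 ± 0.182 (adjusted p = 0.52). The 8 tested genes of the mitochondrial genome had a median difference of -0.0036 and 0 with an unadjusted p under 0.05; mt-Co1 differed by 0.20 (95% interval -0.15 to 0.56) and mt-Cytb by -0.12 (-0.56 to 0.33).

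Fatty acid oxidation had 23 negative differences among 26 genes (median -0.30), 3 (11.5%) with an unadjusted p under 0.05, against 3.87% of all genes. Cpt2, the inner carnitine palmitoyltransferase, stood at 179, 185 and 149 CPM in weaned control and 247, 225 and 258 CPM in weaned fish oil libraries. In adults it stood at 392, 412 and 393 CPM against 348.5, 377 and 369.5 CPM, separate in the opposite order. The difference was -0.64 ± 0.159 (adjusted p = 0.333). The very long chain dehydrogenase Acadvl (-0.40 ± 0.151, adjusted p = 0.569) and the trifunctional protein subunit Hadha (-0.55 ± 0.173, adjusted p = 0.494) were the others. Cpt1b, the outer palmitoyltransferase of muscle and brown fat, overlapped at both ages and differed by -0.05 (95% interval -0.76 to 0.65); the annotation also places a coding readthrough transcript over it, so its reads may be shared. In the citric acid cycle 19 of 20 differences were negative (median -0.29). Mdh1, the cytosolic malate dehydrogenase, was the only 1 (5%, against 3.87% of all genes) with an unadjusted p under 0.05 (-0.64 ± 0.232, adjusted p = 0.561).

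The heat-producing program gave no such order. Of 21 thermogenesis genes 9 had a positive and 12 a negative difference (median -0.12). An unadjusted p under 0.05 was reached by 2 (9.52%), both negative. Of all genes 7.52% reached it, 3.87% on the negative side. Ucp1 stood at 2091, 2295 and 3926 CPM in weaned control, 3058, 2319 and 3957 CPM in weaned fish oil, 3038, 2788 and 2560 CPM in adult control and 2410, 3082 and 2842 CPM in adult fish oil libraries. The groups overlapped at both ages, and the difference was -0.18 ± 0.338 (95% interval -0.91 to 0.56, adjusted p = 0.939). Its coactivator Ppargc1a differed by 0.68 (95% interval -0.18 to 1.53) and Dio2, the deiodinase that activates thyroid hormone, by 1.29 (-1.04 to 3.62); with adjusted p of 0.746 and 0.824 these intervals leave room for sizeable differences. Prdm16, a determinant of brown fat identity, differed by -0.82 ± 0.337 (adjusted p = 0.62). Elovl3, the cold-induced elongase, differed by -2.79 ± 1.09 (adjusted p = 0.585), a value that rested on 1 library: weaned fish oil replicate 1 held 111 CPM and the other 5 weaned libraries 9.04 to 15.2 CPM. Without both weaned libraries that stood apart it was -1.02 (adjusted p = 0.392).

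Regulators and signalling genes were divided. Among 22 lipid regulators 12 differences were positive and 10 negative (median 0.06); subunits of the energy sensor AMPK lay on both sides, with 0.95 ± 0.34 for Prkab2 (adjusted p = 0.561), 0.60 ± 0.246 for Prkag2 (adjusted p = 0.621) and -1.38 ± 0.627 for Prkab1 (adjusted p = 0.663). In the insulin and adipokine list 3 of 20 genes (15%) had an unadjusted p under 0.05, all negative, against 3.87% of all genes. Adipor2, a receptor for adiponectin, stood at 207, 199.5 and 169 CPM in weaned control and 279, 306 and 316 CPM in weaned fish oil libraries, and at 331, 314 and 313 against 268, 332 and 289 CPM in adults, where the groups overlapped. Its difference was -0.75 ± 0.17 (adjusted p = 0.263, and 0.0389 over 18 libraries). Pik3r1, the regulatory subunit of PI3-kinase, was another (-1.74 ± 0.593, adjusted p = 0.54). At an unadjusted p under 0.05 stood 3.65% of all genes on the positive and 3.87% on the negative side. In amino acid and one-carbon metabolism the 25 genes had 3 (12%) on each side. On the positive side were the aspartate transaminase Got1 (1.39 ± 0.455), the serine synthesis enzyme Psat1 (2.43 ± 0.985) and ornithine transaminase Oat (1.26 ± 0.54); on the negative side were Nat8l, which makes N-acetylaspartate (-1.40 ± 0.405), the kinase Bckdk, which inhibits branched-chain ketoacid breakdown (-0.58 ± 0.213), and the mitochondrial branched-chain amino acid carrier Slc25a44 (-0.69 ± 0.269). Psat1 was between 0.206 and 2.28 CPM throughout, at or near the floor in several libraries.

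The turn itself can be counted. In 160 of the 314 metabolic genes (51%) the effect was positive at weaning and negative in adulthood, against 25.8% of all genes tested, and in 36 (11.5%) it was the reverse, against 25.7% of all genes. Of the 71 metabolic genes with a negative difference and an unadjusted p under 0.05, 68 (95.8%) had turned in sign, about the share among all such genes (495 of 513, 96.5%). Taken age by age, 42 of the 314 metabolic genes had all 3 fish oil libraries above all 3 controls at weaning (5.1% of all genes did), and 56 had them below in adulthood (7.75% of all genes, with 6.59% above). A stricter count asked that all 3 fish oil libraries lie above all 3 controls at weaning and below all 3 in adulthood. This held for 69 of all genes (0.521%), and 12 of these were metabolic: Fasn, Cyp51, Insig1, Aacs, Mgll, Slc25a1, Sqle, Cpt2, Srebf2, Dbi, Mdh1 and Acadvl. The reverse order, below at weaning and above in adulthood, held for 45 genes (0.34%), of which 0 were metabolic. These 12 include synthesis and oxidation enzymes alike, with differences from -0.40 for Acadvl to -3.35 for Slc25a1. Across the 314 metabolic genes the effects at the 2 ages had a Pearson r of -0.452 and a Spearman rho of -0.409, and across all 13246 genes 0.215 and -0.009; genes of a library share its depth and scaling and are not independent, so these are descriptions. The ages share no libraries. Tested at 1 age alone over the 12 libraries, 0 metabolic genes passed at an adjusted p under 0.05, either at weaning or in adulthood. Of all genes 1 (0.00755%) and 87 (0.657%) did. In the fit to all 18 libraries 38 of 14366 genes passed at weaning, 14 of them metabolic, and 142 in adulthood, 0 of them metabolic. With DESeq2 over the 12, 61 of 13246 genes passed at weaning, 21 of them metabolic, and 122 in adulthood, 0 of them metabolic. Gene by gene, an effect that turned is therefore not told apart from a weaned effect that faded.

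**Figure D4:**
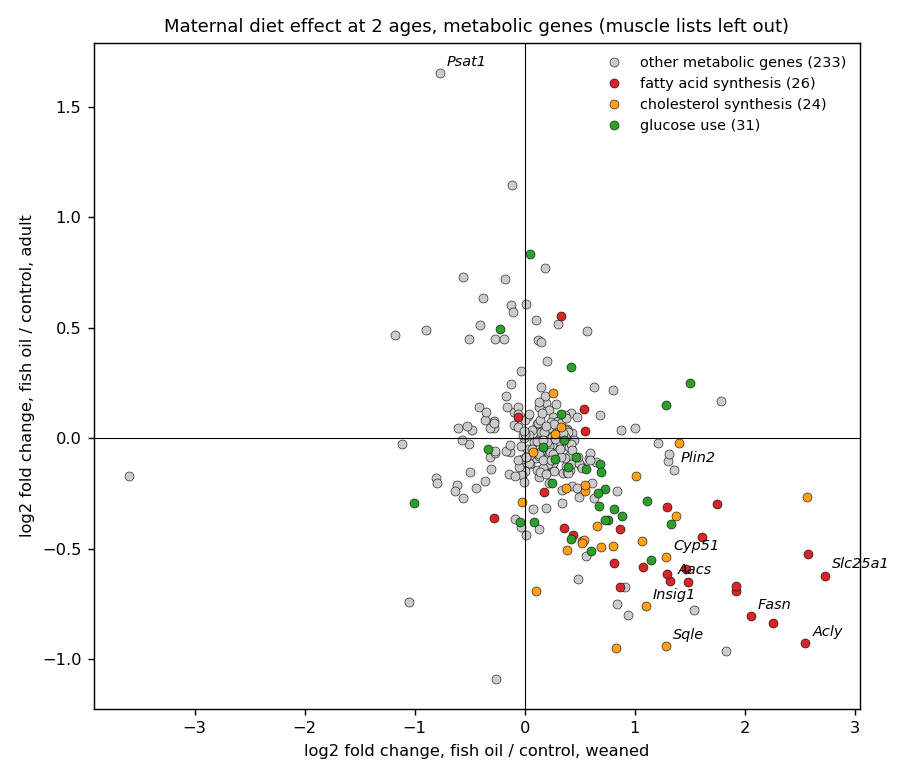
Maternal diet effect at weaning (x axis) against adulthood (y axis), both as log2 fold change of fish oil over control, for the 314 metabolic genes; muscle genes are left out. Genes of fatty acid synthesis (red), cholesterol synthesis (orange) and glucose use (green) lie mostly in the lower right quadrant, positive at weaning and negative in adulthood, which holds 160 of the 314 metabolic genes.

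Some fuel-switch genes varied more within the weaned groups than between them. Pdk4, a kinase that spares glucose by inhibiting pyruvate dehydrogenase, stood at 1077, 1085 and 369 CPM in weaned control and 1640, 100.3 and 269.8 CPM in weaned fish oil libraries. Pck1, which feeds glycerol synthesis in fat, followed the same order, at 1669, 1832 and 675.5 CPM and 1887, 269 and 650.0 CPM. Srebf1 was the mirror image, at 17.5, 19.2 and 68.8 CPM and 12.9, 203 and 139 CPM. In all of these, control replicate 3 lay towards fish oil replicates 2 and 3, and fish oil replicate 1 lay with control replicates 1 and 2. Adult values were close together: 1879 to 2140 CPM for Pdk4 and 37.5 to 55.6 CPM for Srebf1 over all 6 libraries. The differences were 0.28 (95% interval -1.93 to 2.50) for Pdk4 and 0.57 (-1.06 to 2.19) for Pck1, with adjusted p of 0.974 and 0.897. With both of these weaned libraries left out they were 2.50 and 1.93, and that for Srebf1 was -3.52. The libraries left out are those that lay towards the other diet in these genes, so the larger differences follow from the choice and are not further support. What set these libraries apart was not tested.

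**Figure D5:**
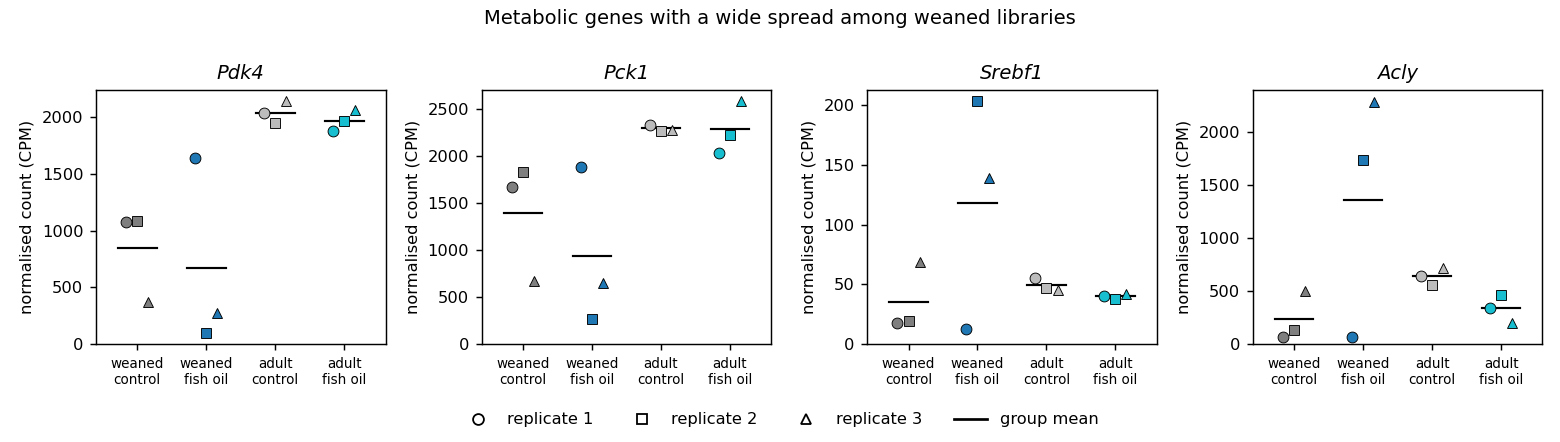
Normalised CPM (y axis, from 0, a separate scale per gene) of Pdk4, Pck1, Srebf1 and Acly in each library by group; shapes are replicate numbers and bars group means. Weaned fish oil replicate 1 (circle) has the highest Pdk4 (1640 CPM) and the lowest Srebf1 (12.9 CPM) of the weaned libraries, while adult libraries of a group lie close together for Pdk4, Pck1 and Srebf1.

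The circadian clock list had 19 tested genes, 6 with a positive and 13 with a negative difference, and a median of -0.53. An unadjusted p under 0.05 was reached by 1 (5.26%), on the negative side, against 3.87% of all genes. Its mean log2 CPM at weaning was 3.50 to 3.56 with control and 3.89 to 4.00 with fish oil, without overlap, and 3.42 to 3.46 and 3.41 to 3.55 in the adult groups. Per2, a repressor of the clock, stood at 14.6, 13.4 and 13.7 CPM in weaned control and 19.7, 28.4 and 30.6 CPM in weaned fish oil libraries, and its effect stayed positive in adults (0.39), for a difference of -0.53 ± 0.268 (adjusted p = 0.705). The REV-ERB genes Nr1d1 and Nr1d2, both 0.67 (adjusted p of 0.81 and 0.752), and Arntl, the gene of BMAL1 (0.06 ± 0.583, adjusted p = 0.992), lay on the other side. The hour at which tissue was taken is not given in the labels.

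Muscle genes are given apart from the metabolic lists. The 30 tested genes of the sarcomere list had 30 positive differences, 25 (83.3%) with an unadjusted p under 0.05, against 3.65% of all genes. Their median was 3.79, from 1.41 at weaning and 5.28 in adulthood. In the adult comparison alone 25 of the 30 passed, where 87 of all genes (0.657%) did. In the weaned comparison 0 genes of the muscle lists passed, where 1 of all genes (0.00755%) did. At an unadjusted p under 0.05 these 2 comparisons had 4.67% and 9.2% of all genes. Without adult control replicate 1 or 2, or without adult fish oil replicate 1, 0 genes passed in the adult comparison (553, 614 and 622 at an unadjusted p under 0.05). The summed CPM of the 35 listed genes was 46.7, 51.2 and 283.5 in weaned control, 248.6, 301 and 228 in weaned fish oil, 190.5, 39.0 and 319 in adult control and 11610, 9271 and 1827 in adult fish oil libraries. All 3 adult fish oil libraries were far above the other 9, and none of the 35 genes was at 0 in every library. Tpm2, a tropomyosin, read 5.60, 4.74 and 10.1 CPM, then 7.88, 8.85 and 6.95 CPM at weaning, and 7.37, 3.00 and 6.68 CPM against 187, 185 and 38.0 CPM in adults. Its difference was 4.38 ± 0.753 (adjusted p = 0.147, and 0.0196 over 18 libraries). Myoglobin, Mb, was unlike the rest at weaning, with 10.3, 1.97 and 43.1 CPM in control against 3.56, 2.33 and 1.35 CPM, so its difference of 6.66 ± 1.27 (adjusted p = 0.172, and 0.0196 over 18 libraries) rested in part on control replicate 3. Without both weaned libraries that stood apart 5 of 34 tested genes of the list (14.7%) had a positive difference with an unadjusted p under 0.05, near the 12.2% of all genes in that fit, and the median was 2.26.

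Metabolic genes listed as muscle forms were divided. Of 17 tested, 10 had a positive and 7 a negative difference (median 0.70). At an unadjusted p under 0.05, 8 (47.1%) were positive and 2 (11.8%) negative, against 3.65% and 3.87% of all genes. Among the 8 were muscle glycogen phosphorylase Pygm (4.47 ± 0.926, adjusted p = 0.205), beta-enolase Eno3 (3.29 ± 0.704, adjusted p = 0.216), mitochondrial creatine kinase Ckmt2 (4.85 ± 1.25, adjusted p = 0.363) and the AMP deaminase Ampd1 (4.53 ± 1.23, adjusted p = 0.425). The uncoupling protein gene Ucp3 (-0.78 ± 0.297) and the fructose bisphosphatase gene Fbp2 (-1.40 ± 0.44) were negative at that threshold, and Gys1, Ldhb, Cox7a1, Cox8b and Slc25a4 lay between -0.34 and -0.02. Adult control replicate 2 had the lowest sarcomere sum (39.0 CPM). There Cox8b stood at 264, Slc25a4 at 169, Cox7a1 at 84.9 and Ucp3 at 71.7 CPM. Pygm, Eno3, Ckmt2 and Ampd1 read 0.281, 1.31, 0 and 0.0936 CPM in it, so the list does not hold muscle-restricted genes alone. Fewer cells of a type and less RNA per cell cannot be told apart in these bulk samples, and the part of muscle RNA in the metabolic differences was not tested beyond refits. Scaling on genes outside the muscle lists, which changes only the library scaling, left the fatty acid synthesis median at -1.78. With the muscle list mean as a covariate it was -2.39, with -1.45 for cholesterol synthesis and -1.36 for glucose use. In that last fit 0 genes passed and 978 had an unadjusted p under 0.05. The covariate was 6.425, 6.154 and 3.995 in adult fish oil and at most 1.778 in any other library. It thus nearly marks that group, and the refit cannot separate muscle RNA from the adult diet effect.

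Markers of some other cell types lay to 1 side and those of others were split. All 10 fibroblast and matrix markers had a positive difference (median 0.81), as did all 7 tested smooth muscle and pericyte markers (median 1.28, Des among them, which skeletal muscle shares) and all 10 endothelial markers (median 0.25). All 7 tested erythroid markers were negative (median -0.94). White adipocyte markers split into 4 positive and 2 negative (median 0.99), macrophage markers into 8 and 2 (0.27), Schwann cell markers into 4 and 2 (0.28) and brown adipocyte markers into 2 and 6 (-0.27). At weaning the fibroblast list summed to 786 to 1210 CPM with control and 583 to 1110 CPM with fish oil, and in adults to 425 to 633 and 561 to 779 CPM. The endothelial list summed to 469 to 610.5 and 409 to 503 CPM at weaning, and to 339 to 391 and 318 to 365 CPM in adults. Their part in the metabolic differences was not tested.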

How the data were processed

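Total RNA of interscapular brown fat was sequenced (TruSeq libraries). The deposited files give 55416 Ensembl genes with raw read counts, each counted without strand and on either strand. Bowtie 0.12.2, STAR and the builds mm8 and mm9 are named in the submitters' processing notes; the gene annotation was not stated in these sources. The forward-strand column was used, since it held nearly all of the unstranded total. How the strand columns were made is not stated, so genes that overlap on opposite strands, such as Cyp51 and Akap9, may share reads. A symbol was found for 52083 genes (99.98% of counts). Promoter windows came from RefSeq on GRCm38.p6, and overlapping genes were looked up in GENCODE M21.

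Counts were filtered with filterByExpr (minimum count 10), scaled by TMM and fitted with edgeR 4.0.16 in R 4.3.3 over 12 libraries as 4 group means. The quasi-likelihood test with Benjamini-Hochberg adjustment over 13246 genes and a threshold of 0.05 was used for the difference and for the effect at each age. Errors of log2 fold changes are standard errors from that fit; intervals are at 95%. List means are of log2 CPM with a prior count of 2. On counts simulated for 13013 genes, the test of the difference recovered 61 of 100 changes of log2 2. It recovered 99 of 100 of log2 4, with 9 false calls among 169. Changes were placed in adult fish oil only and in genes above a minimum mean, and a gene otherwise had the same mean and dispersion in every group. The measured libraries were unlike this, with a biological coefficient of variation of 26.8% in weaned and 19.6% in adult libraries and 2 weaned libraries that stood apart. Over the 12 measured libraries 1 gene passed. Differences of 4.38 for Tpm2, 6.66 for Mb and 4.85 for Ckmt2 did not (adjusted p of 0.147, 0.172 and 0.363). Whether the recovered shares hold for the measured libraries was not tested. DESeq2 1.42.0 and limma 3.58.1 were alternatives. Genes named were 18 fixed ones, every gene that passed, the 2 lowest p of each metabolic list in each direction, metabolic genes whose groups separated in opposite order at both ages, and 4 genes of each muscle list; further metabolic and clock genes given by value, and the marker Des, were chosen after their values were seen. Some genes that this rule gives are not reported here. The members and lists were chosen with earlier results of these data known.

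For adult fish oil replicate 2 the source name gives another replicate number, and the title was used. Replicate numbers were not taken to pair samples.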

Additional observations from a re-analysis of the deposited data

How the results depend on the processing

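Over 27 alternatives for each of 77 genes chosen by the naming rule, 2043 of 2079 differences kept their direction and 153 moved past the threshold.

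The count of genes with a difference (1) became 348 with no low-count filter, 73 with DESeq2, 185 with limma-voom and sample quality weights, 36 with all 18 libraries and 0 with the muscle list mean as covariate (978 at an unadjusted p under 0.05). Leaving out 1 library gave 1 to 266: 2 without weaned control replicate 3, 266 without weaned fish oil replicate 1, 34 without adult fish oil replicate 3 (32 of them higher) and 1 without each of the others. Leaving out both weaned libraries that stood apart, chosen after seeing the data, gave 1179, with 519 higher.

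For the weaned effect (1 gene) the count was 3 by library size alone, 431 with no filter, 61 with DESeq2, 2 with limma-voom or robust edgeR, 667 with quality weights, 38 with 18 libraries, 0 with the covariate (748 at an unadjusted p under 0.05) and 2093 without both libraries. Leaving out 1 library gave 0 to 691: 0 without weaned control replicate 1 or 2 (863 and 777 at an unadjusted p under 0.05), 19 without weaned control replicate 3 and 691 without weaned fish oil replicate 1.

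For the adult effect (87 genes) it was 399 with no filter, 122 with DESeq2, 0 with limma-voom (488 at an unadjusted p under 0.05), 19 with quality weights, 54 with robust edgeR, 142 with 18 libraries, 0 with the covariate (503) and 123 without both weaned libraries. Leaving out 1 library gave 0 to 133: 0 without adult control replicate 1 or 2 or adult fish oil replicate 1 (553, 614 and 622), 12 without adult control replicate 3, 29 without adult fish oil replicate 2 and 133 without adult fish oil replicate 3.

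Same-numbered control and fish oil libraries correlated at 0.315, -0.146 and 0.278 at weaning and 0.075, -0.364 and -0.545 in adults, so numbers were not taken as pairs. With the replicate block 0 genes passed for the difference (966 at an unadjusted p under 0.05), 0 at weaning (1151) and 20 in adults.

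Direction was unstable in genes near 0. With voom quality weights, the covariate and both libraries left out, Cpt1b was 0.24, 0.054 and 0.29, Fads1 -0.20, -0.17 and -0.10 and Fads2 -0.27, -0.95 and -0.018; Fads2 was -0.071 with limma-voom, Acaa1b -1.07 with the covariate and Ndufb3 -0.013 by library size alone. With 1 library left out, Abhd5 ranged from -0.0083 to 0.33, Acaa1b from -0.61 to 0.71, Cpt1b from -0.23 to 0.14, Fads1 from -0.31 to 0.45, Fads2 from -0.65 to 0.58, Gpat3 from -0.059 to 1.14, Idh2 from -0.091 to 0.23, mt-Nd3 from -0.31 to 0.015, Ndufb3 from -0.067 to 0.15, Pdk4 from -0.23 to 2.14 and Ucp1 from -0.52 to 0.033. The cause of these changes was not tested. The biological coefficient of variation was 26.8% in weaned and 19.6% in adult libraries, and 24.9% over the 12.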
